A study of Arabidopsis thaliana with 21 samples.

Results

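The photosystem and antenna protein genes are the genes whose pathway annotation in the deposited tables names photosynthesis. There were 43 of them among the 2945 genes listed, 33 of 1128 in roots and 28 of 2065 in leaf protoplasts, with 18 in both. They comprised 15 antenna proteins, 11 subunits of photosystem I, 6 of photosystem II, 6 ferredoxin or ferredoxin reductase genes, 2 plastocyanins, 2 subunits of the chloroplast ATP synthase, and PnsL2, a subunit of the chloroplast NADH dehydrogenase-like complex. RNA of Arabidopsis thaliana was sequenced in 21 libraries, 3 labelled as biological replicates in each of 7 groups. Roots came from wild-type Ler seedlings and from p35S:KIN10-HA seedlings (KIN10ox), in which the 35S promoter drives KIN10-HA in most cell types. All root groups had 7 days with 5 mM nitrate and 2 days free of nitrogen, and then 1 h with 5 mM KCl (the control salt) or 5 mM KNO3. Mesophyll protoplasts of wild-type Col-0 plants aged 4 weeks, grown under days of 8 h light and 16 h dark, transiently expressed GFP, NLP7-GFP, or both factors, NLP7-GFP and KIN10-Myc. NLP7 activates nitrate-response genes, and KIN10 belongs to the SnRK1 kinase, which signals energy shortage.

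Photosystem II splits water and passes electrons through the cytochrome complex to plastocyanin, a small copper protein. Photosystem I takes electrons from plastocyanin and gives them to ferredoxin, from which ferredoxin-NADP reductase makes NADPH. Antenna proteins, encoded by LHCA genes for photosystem I and by LHCB and CAB genes for photosystem II, bind chlorophyll and pass light energy on. In plastids that are not green the last steps run in reverse: root-type ferredoxin reductase takes electrons from NADPH and gives them to root-type ferredoxin, which feeds nitrite reductase. The annotation therefore joins genes of green tissue with 3 genes of root plastids, FD3, RFNR1 and RFNR2, and these are described apart.

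The root libraries held 19704946 to 20236433 mapped fragments and the protoplast libraries 16190118 to 20436805. Levels are FPKM (mapped fragments scaled by transcript length and library size), and differences are on the log2 scale with a standard error (SE) from edgeR. A gene is said to rise, fall, or be higher or lower by a call where the edgeR adjusted p was under 0.05. The tables hold the genes that the authors selected as changed, so being listed depends on the response. All 33 root genes stood in the table for nitrate in KIN10ox and 4 of them in that for Ler, while all 28 protoplast genes stood in the table for NLP7 and 2 in that for NLP7 with KIN10. Counts in the 2 comparisons that listed all of these genes are descriptions. Root marker genes could not check the root label, since 0 of 13 were listed in roots. In protoplasts 0 of 5 guard cell markers and 0 of 16 seed markers were listed, and CAB1, a major leaf antenna gene, stood at 365 to 412 FPKM with GFP. For roots no KIN10 level is analysed here. In protoplasts KIN10 read 31.6 to 33.1 FPKM under GFP, 26.2 to 30.1 under NLP7, and 407, 287 and 546 where it was expressed.

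The first comparison asked how 1 h of nitrate changed these genes in roots. The 3 root-type genes rose in both genotypes, as did 53.8% of all genes tested in Ler and 51.6% in KIN10ox. Of the 30 genes of green tissue 29 fell in KIN10ox and 3 in Ler, where the Ler count depended on the scaling. FD3 (AT2G27510), root-type ferredoxin, stood at 435, 422 and 358 FPKM with KCl and at 1994, 1735 and 1684 with KNO3 in Ler. KIN10ox libraries held 404, 439 and 441 with KCl and 1557, 1917 and 1693 with KNO3. The KCl and KNO3 libraries lay far apart in both genotypes, and the genotypes overlapped.

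RFNR2 (AT1G30510), a root-type ferredoxin reductase, stood at 195, 217 and 228 FPKM with KCl and at 2172, 2020.3 and 2106 with KNO3 in Ler. In KIN10ox it stood at 198, 209.8 and 217 with KCl and at 1713, 1411 and 1796 with KNO3. Its 3 KIN10ox libraries with KNO3 were below all 3 of Ler, and those with KCl were not. RFNR1 (AT4G05390), the second root-type reductase, stood at 55.9, 58.3 and 57.6 FPKM with KCl and at 589, 541 and 553 with KNO3 in Ler. The KIN10ox libraries read 52.7, 54.3 and 61.9 with KCl and 427, 435 and 407 with KNO3. It showed the same order of groups as RFNR2.

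Nitrate raised FD3 by 2.16 ± 0.11, RFNR1 by 3.29 ± 0.09 and RFNR2 by 3.28 ± 0.11 in Ler, and by 2.00 ± 0.11, 2.91 ± 0.09 and 2.96 ± 0.11 in KIN10ox. With KNO3, RFNR1 was lower in KIN10ox than in Ler by a log2 difference of -0.41 ± 0.08 (edgeR adjusted p = 0.00798) and RFNR2 by -0.35 ± 0.10 (edgeR adjusted p = 0.0384). FD3 differed by -0.07 ± 0.11 (edgeR adjusted p = 0.678). Both reductase calls were lost where library factors were computed over the listed genes, with TMM or DESeq2, and that of RFNR2 also in a fit of the KNO3 libraries alone. The RFNR1 call was kept without any 1 of the 12 libraries. That of RFNR2 was lost without library 2 with KCl of either genotype. It was also lost without KIN10ox library 1 or 2 with KNO3, or any 1 Ler library with KNO3. The difference of the nitrate responses between genotypes was not called for any of the 3, with edgeR adjusted p values of 0.128 for RFNR1, 0.223 for RFNR2 and 0.569 for FD3.

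**Figure D1:**
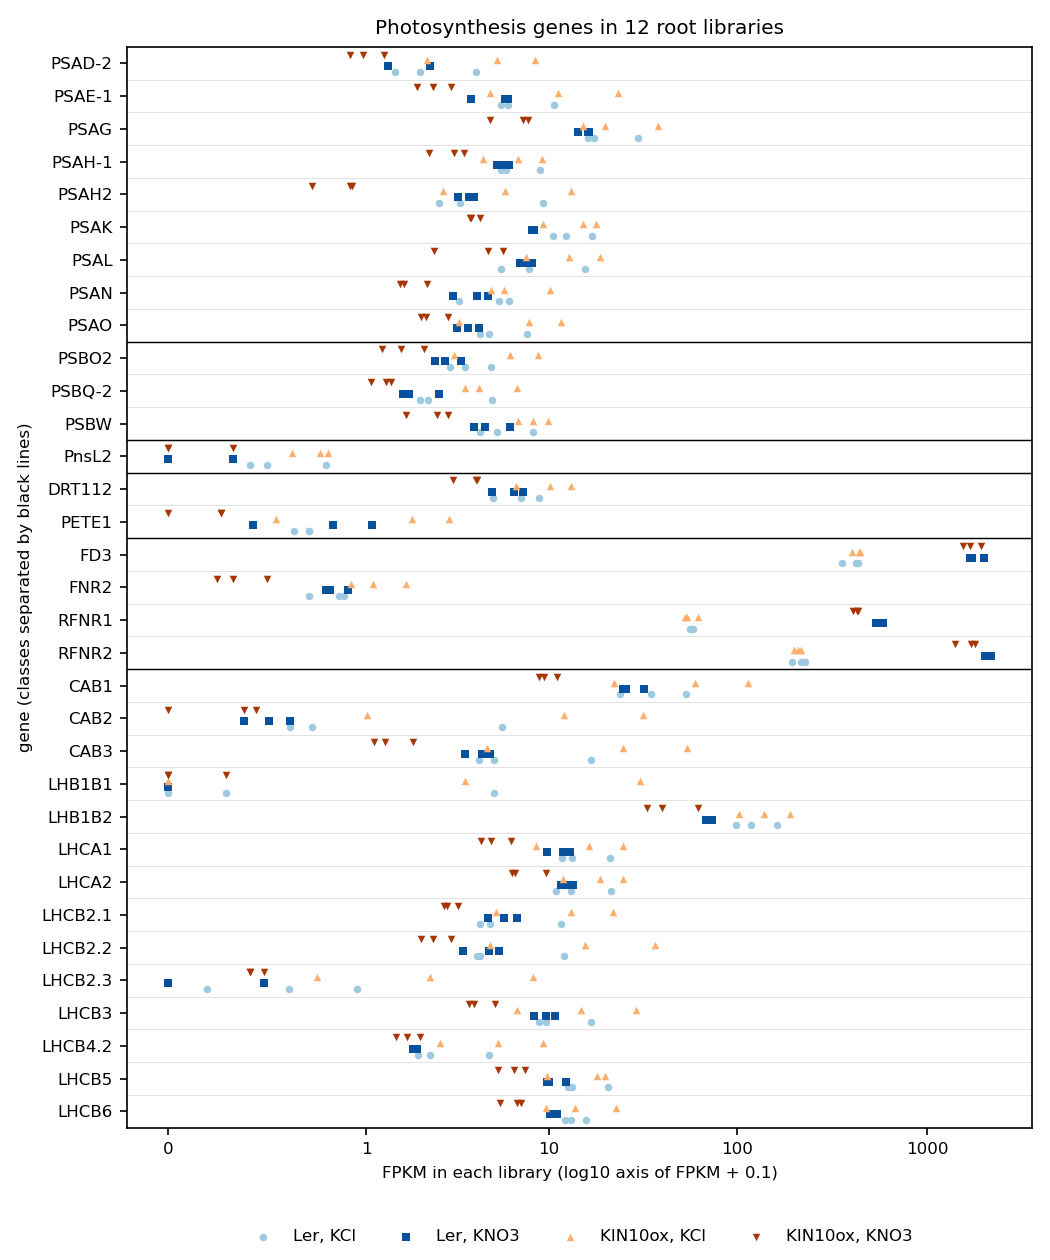
FPKM of 33 photosynthesis genes (rows, classes separated by black lines) in 12 root libraries, with 1 symbol per library and 3 per group, on a log10 axis of FPKM + 0.1. FD3, RFNR1 and RFNR2 were higher with KNO3, where they stood above all others, and most of the other 30 genes were lowest in KIN10ox with KNO3.

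The FPKM summed over the 30 genes of green tissue was 506, 266 and 316 in Ler with KCl and 256, 247 and 226 in Ler with KNO3. In KIN10ox their summed FPKM was 479, 266 and 812 with KCl and 107, 158 and 123.45 with KNO3. The 3 KIN10ox libraries with KNO3 were the lowest of the 12, and the KCl libraries of both genotypes were uneven. In bulk roots, fewer green cells and less RNA per cell cannot be told apart. KIN10ox library 3 with KCl was the highest of its group for 30 of the 30 genes and library 2 the lowest for 29. In Ler with KCl, library 1 was the highest for 30 of the 30. All genes listed in roots together took 4.00%, 3.89% and 4.24% of the mapped fragments in KIN10ox libraries 1, 2 and 3 with KCl. In Ler with KCl they took 4.58%, 4.42% and 3.89%. The whole list thus also stood highest in KIN10ox library 3 and in Ler library 1. Library order was not counted gene by gene over all genes listed in roots.

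Seed storage and seed lipid markers moved with the same KIN10ox libraries. Of 16 seed markers 10 were listed, and their summed FPKM was 37.6, 9.28 and 127.6 in KIN10ox with KCl, with none of the 10 at 0. In the other 9 root libraries it was 2.17 to 9.60, with 0 to 5 of the 10 at 0. In Ler library 1 with KCl, where the photosynthesis genes were also high, the summed seed markers stood at 5.60. The guard cell markers KAT1 and TGG1, the 2 listed of 5, summed to 3.16, 1.20 and 3.11 FPKM in KIN10ox with KCl, to 0.90 to 1.99 in Ler with KCl and to 0.09 to 0.43 with KNO3. With KCl, KAT1 was lower in KIN10ox than in Ler by -0.93 ± 0.26 (edgeR adjusted p = 0.035), while TGG1, at 2.52, 0.72 and 2.69 FPKM in KIN10ox and 1, 0 and 0 in Ler, was not called. The part of these cells in the results was not tested.

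**Figure D2:**
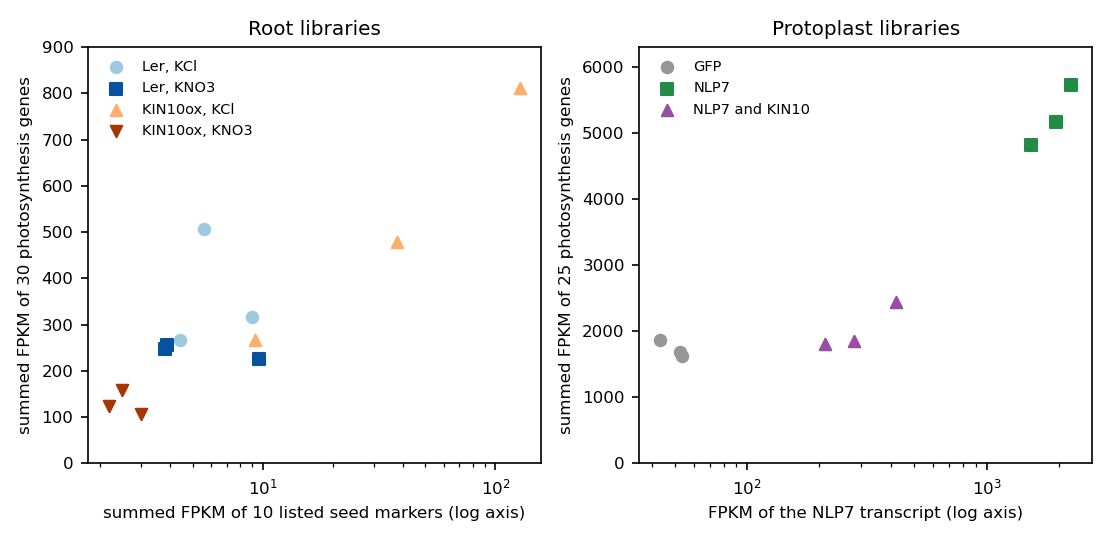
Left, summed FPKM of the 30 photosynthesis genes of green tissue against the summed FPKM of 10 seed markers (log axis) in 12 root libraries; right, summed FPKM of 25 such genes against the FPKM of the NLP7 transcript (log axis) in 9 protoplast libraries. KIN10ox library 3 with KCl stood highest on both root axes at 812 and 127.6, and the NLP7 libraries stood highest on both protoplast axes.

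In KIN10ox roots nitrate lowered all 29 genes of green tissue that passed the filter on low counts, with a median log2 difference of -1.95, while all 972 genes tested had a median of 0.67. PnsL2, at 0 to 0.59 FPKM, was the only one that did not pass. By the edgeR call 39.5% of all genes tested fell in KIN10ox, and the authors listed these genes from this same contrast. In Ler roots 3 of the 29 fell, with a median of -0.44, where 26.6% of all genes tested fell. Among the 318 tested genes that the authors listed as lower with nitrate in KIN10ox, 55.7% fell in Ler, with a median of -1.06. The 3 that fell in Ler were the antenna genes LHB1B2 and CAB2 and the photosystem I subunit PSAK. Without the 2 high KIN10ox libraries with KCl, 1 and 3, the KIN10ox comparison called 13 genes lower, with library 2 alone left with KCl and its spread assumed to be like that of the other groups, and without these and Ler library 1 it called 22. All 3 Ler libraries with KNO3 lay below the 3 with KCl for 7 of the 33 genes, beside 27.2% of all genes tested. TMM factors over the listed genes moved the median of all genes in Ler by -0.80. With them the Ler count of all 33 genes called rose from 6 to 24, of which 3 higher and 21 lower. DESeq2 called 26 in Ler, of which 3 higher and 23 lower. In the main scaling 80.5% of all genes tested were called in either direction. The contrast of 29 genes falling in KIN10ox and 3 in Ler thus depended on the scaling.

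The difference of the nitrate responses was called for none of the 32 genes tested and for 0% of all genes, by edgeR. Its fitted log2 value was negative for 32 of 32, or for 31 with TMM or DESeq2 factors, where FD3 turned, with a median of -1.46 over the genes of green tissue and of -0.26 over all genes tested. An unadjusted p under 0.05 was reached by 24 of the 32, by 19.2% of all genes tested and by 24.2% of those listed as lower in KIN10ox, and the lowest edgeR adjusted p was 0.0512, for FNR2. DESeq2 called FNR2 alone. Without KIN10ox library 2 with KCl, the lowest of its group, 10 were called, and without Ler library 1 with KCl, the highest of its group, 3 were. Without KIN10ox library 3 with KNO3, 1 was called.

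**Figure D3:**
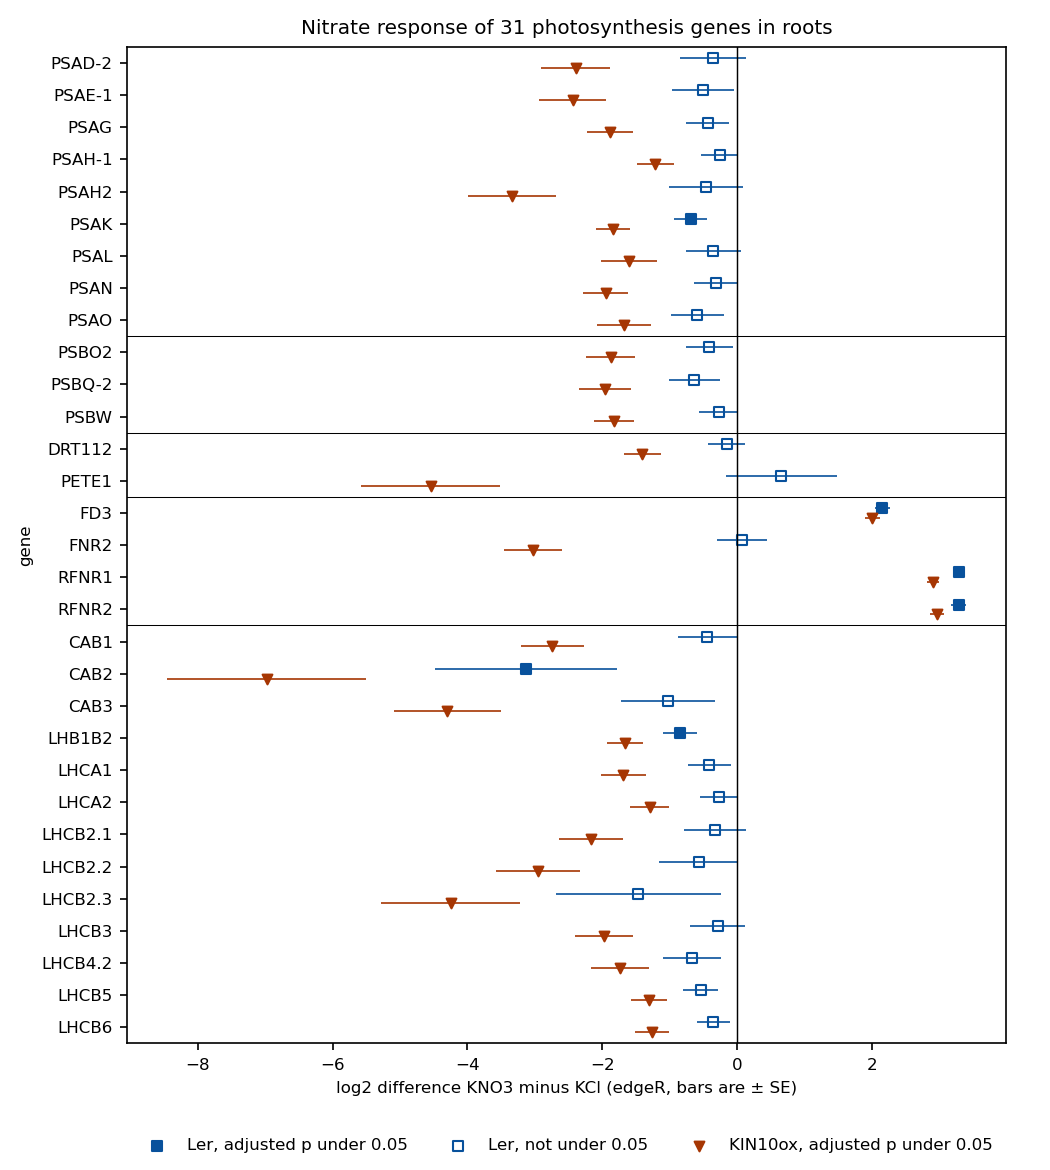
Log2 difference of KNO3 against KCl (edgeR, ± SE, n = 3 against 3) for 31 photosynthesis genes in Ler (squares) and KIN10ox (triangles) roots, filled where the edgeR adjusted p was under 0.05; PnsL2, which was not tested, and LHB1B1, at 0 in all Ler libraries with KNO3, are not drawn. The KIN10ox values lay to the left of those of Ler in every row (in all but that of FD3 with TMM or DESeq2 factors), though the difference was not called for any gene.

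The second root comparison asked how KIN10ox differed from Ler under each salt. With KNO3, 25 of the 29 genes of green tissue had all 3 KIN10ox libraries below all 3 of Ler. The same held for 28.2% of all genes tested and for 33.6% of the genes that the authors listed as lower with nitrate in KIN10ox. By the edgeR call 8 of the 29 were lower in KIN10ox, beside 8.95% of all genes tested and 9.43% of those listed as lower. The 8 were PSAG, PSAH-1, PSAH2, PSAK, PSAN, PSBW, LHCA1 and FNR2. The median log2 difference was -0.95 over the 29, -0.35 over the genes listed as lower and -0.19 over all genes tested. These genes were listed from the same KIN10ox libraries. In a fit of the 6 KNO3 libraries alone, chosen after the data were seen, 19 of the 33 genes were called, all lower. In a fit without the 3 KCl libraries that stood high, 20 were called. The share of all genes called in these fits is not given here, so both counts are descriptions. With TMM factors over the listed genes, which moved the median of all genes by 0.21, 1 was called, and without any 1 of the 6 KNO3 libraries 2 to 4 were. The count was 5 without KIN10ox library 1 with KCl and 6 without Ler library 3 with KCl.

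With KCl the libraries of KIN10ox and Ler overlapped for 32 of the 33 genes, FNR2 being the exception, while 19.2% of all genes tested had all KIN10ox libraries above those of Ler. LHCB2.3 was called higher in KIN10ox by 3.09 ± 0.92 (edgeR adjusted p = 0.0448), where 7.72% of all genes tested were. This call was lost without any single library other than Ler library 1 and KIN10ox library 2 with KCl. The KCl count of all 33 genes was 11 without KIN10ox library 2, and 5 without Ler library 1.

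Among photosystem I genes, PSAH2 (AT1G52230), subunit H, had the largest differences for nitrate in KIN10ox and between genotypes with KNO3. Its FPKM was 9.32, 2.56 and 3.33 in Ler with KCl and 3.74, 3.28 and 3.99 with KNO3. In KIN10ox it was 5.85, 2.69 and 13.2 with KCl and 0.83, 0.47 and 0.81 with KNO3, so the last group lay below all other libraries. Nitrate lowered it by -3.34 ± 0.65 in KIN10ox, while the Ler value was -0.46 ± 0.55. With KNO3 it was lower in KIN10ox by -2.36 ± 0.66 (edgeR adjusted p = 0.0381). The PSAH2 call was lost with TMM factors and limma on log2(FPKM + 1). It was also lost without KIN10ox library 1 with KCl and without any 1 of the 6 KNO3 libraries.

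PSAG (AT1G55670), which lies at the contact with the antenna, had the highest mean level of the class. Its FPKM was 29.9, 16.3 and 17.4 in Ler with KCl, 16.3, 16.2 and 14.4 in Ler with KNO3, 20.0, 15.3 and 38.2 in KIN10ox with KCl, and 4.89, 7.73 and 7.28 in KIN10ox with KNO3. The KIN10ox libraries with KNO3 stood apart below the other 9. With KNO3 the log2 difference of KIN10ox to Ler was -1.24 ± 0.34 (edgeR adjusted p = 0.0366).

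PSAK (AT1G30380), on the antenna side of photosystem I, was even between replicates with KNO3 and less so with KCl. Its FPKM was 17.0, 10.6 and 12.3 in Ler with KCl, 8.19, 8.22 and 8.33 in Ler with KNO3, 15.3, 9.33 and 17.9 in KIN10ox with KCl, and 3.78, 4.31 and 3.82 in KIN10ox with KNO3. Nitrate lowered it in Ler by -0.69 ± 0.24 (edgeR adjusted p = 0.0196) and in KIN10ox by -1.84 ± 0.26, with no overlap in either. The Ler call was lost without Ler library 1 with KCl and without Ler library 1 or 2 with KNO3.

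PSAN (AT5G64040), a subunit on the lumen side where plastocyanin docks, stood at 6.12, 3.29 and 5.43 FPKM in Ler with KCl and at 4.73, 4.13 and 3.05 with KNO3. In KIN10ox it stood at 5.80, 4.94 and 10.2 with KCl and at 1.56, 1.64 and 2.22 with KNO3. Its KIN10ox libraries with KNO3 again lay below all others, by -1.14 ± 0.34 against Ler with KNO3 (edgeR adjusted p = 0.0472). The PSAN call was lost with TMM factors, DESeq2, limma on log2(FPKM + 1) and no filter, and without any 1 of the 6 KNO3 libraries. It was also lost without KIN10ox library 1, Ler library 1 or Ler library 3 with KCl. PSAD-2 (AT1G03130), which docks ferredoxin, stood at 4.11, 1.47 and 2.02 FPKM in Ler with KCl and at 2.28, 2.29 and 1.33 with KNO3. KIN10ox gave 5.30, 2.21 and 8.50 with KCl and 0.96, 1.27 and 0.81 with KNO3. Its KIN10ox value with KNO3 lay below all Ler libraries by a small gap and was not called, with a log2 difference of -0.96 ± 0.52 (edgeR adjusted p = 0.243).

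PSAL (AT4G12800), subunit L beside subunit H, stood at 15.7, 5.55 and 7.82 FPKM in Ler with KCl and at 7.53, 7.02 and 8.19 with KNO3. In KIN10ox it stood at 12.8, 7.60 and 18.7 with KCl and at 2.41, 5.70 and 4.77 with KNO3. PSAE-1 (AT4G28750), which docks ferredoxin, stood at 10.7, 6.09 and 5.54 FPKM in Ler with KCl and at 5.83, 6.04 and 3.84 with KNO3. In both genes the uneven KCl libraries spanned 2.46-fold to 4.80-fold from library 2 to library 3 of KIN10ox. PSAE-1 in KIN10ox stood at 11.3, 4.89 and 23.5 with KCl and at 2.99, 1.94 and 2.38 with KNO3. Over the 9 photosystem I genes the nitrate difference ran from -3.34 to -1.21 in KIN10ox, with 9 of 9 lower, and from -0.69 to -0.26 in Ler, with 1 of 9 lower. With TMM factors and with DESeq2, PSAE-1, PSAG, PSAH-1, PSAK, PSAL, PSAN and PSAO were called lower in Ler.

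The photosystem II genes listed in roots encode 2 proteins of the oxygen-evolving complex, PSBO2 and PSBQ-2, and the small subunit PSBW. PSBW (AT2G30570) stood at 8.27, 4.31 and 5.33 FPKM in Ler with KCl, 6.25, 3.97 and 4.56 in Ler with KNO3, 8.22, 6.91 and 9.96 in KIN10ox with KCl, and 2.88, 2.52 and 1.68 in KIN10ox with KNO3. Of the 3 it was the evenest between the KIN10ox libraries with KCl, 1.44-fold from library 2 to library 3. It was lower in KIN10ox with KNO3 by -1.07 ± 0.30 (edgeR adjusted p = 0.0409). The PSBW call was lost with TMM factors, with DESeq2 and without any 1 of the 6 KNO3 libraries. It was also lost without KIN10ox library 1 or Ler library 3 with KCl.

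PSBO2 (AT3G50820) stood at 4.95, 2.95 and 3.56 FPKM in Ler with KCl and 2.78, 3.40 and 2.44 with KNO3, and at 6.21, 3.11 and 8.78 in KIN10ox with KCl and 1.58, 2.12 and 1.24 with KNO3. PSBQ-2 (AT4G05180) stood at 5.00, 2.25 and 2.03 FPKM in Ler with KCl and 2.58, 1.76 and 1.63 with KNO3, and at 4.26, 3.58 and 6.81 in KIN10ox with KCl and 1.07, 1.39 and 1.31 with KNO3. Both were below all Ler libraries in KIN10ox with KNO3, and neither was called there, with edgeR adjusted p values of 0.165 and 0.278. The log2 nitrate differences of the 3 genes in KIN10ox were close, from -1.95 to -1.83.

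Of the electron carriers, the leaf-type reductase FNR2 and the plastocyanins PETE1 and DRT112 fell with nitrate in KIN10ox, where the root-type genes rose, and none of the 3 was called in Ler. TMM factors and DESeq2 called DRT112 lower in Ler. FNR2 (AT1G20020), which makes NADPH in chloroplasts, stood at 0.74, 0.45 and 0.69 FPKM in Ler with KCl and 0.58, 0.78 and 0.61 with KNO3. In KIN10ox it stood at 1.10, 0.82 and 1.68 with KCl and 0.12, 0.08 and 0.23 with KNO3. The 4 groups thus ran from KIN10ox with KCl, above all Ler libraries, to KIN10ox with KNO3, below them. It was lower in KIN10ox with KNO3 by -2.18 ± 0.45 (edgeR adjusted p = 0.00866), a call kept without any 1 of the 12 libraries and with TMM factors or DESeq2. The level is near the limit of counting, with expected counts of 3, 2 and 6 in KIN10ox and 15, 20 and 16 in Ler with KNO3. FNR2 is identical to RFNR1 in 55.3% of aligned coding columns and to RFNR2 in 56.2%, with gaps counted as differences.

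PETE1 (AT1G76100) stood at 0.45, 0.36 and 0.45 FPKM in Ler with KCl and 1.09, 0.64 and 0.18 with KNO3, and at 1.82, 0.27 and 2.93 in KIN10ox with KCl and 0.09, 0.09 and 0 with KNO3. Its KIN10ox libraries with KNO3 lay below all others, though the level is near the limit of counting. Its nitrate difference was -4.55 ± 1.03 in KIN10ox and 0.66 ± 0.83 in Ler, where it was not called. DRT112 (AT1G20340), the other plastocyanin, stood higher, at 3.06 to 4.16 FPKM in KIN10ox with KNO3 and 4.98 to 13.1 in the other libraries.

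Antenna genes held most of the FPKM of the 30 genes, with sums of 195 to 367 in Ler with KCl, 160 to 177 in Ler with KNO3, 189.7 to 617 in KIN10ox with KCl, and 76.2 to 118 in KIN10ox with KNO3. LHB1B2 (AT2G34420), a major antenna protein of photosystem II, was the most abundant. It stood at 161, 98.2 and 118 FPKM in Ler with KCl, 68.4, 73.2 and 68.0 in Ler with KNO3, 137.5, 101 and 189 in KIN10ox with KCl, and 33.4, 62.2 and 40.0 in KIN10ox with KNO3. Nitrate lowered it by -0.85 ± 0.26 in Ler (edgeR adjusted p = 0.0083) and by -1.66 ± 0.26 in KIN10ox, without overlap. The Ler call was kept without any 1 of the 12 libraries.

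CAB1, CAB2 and CAB3 lie side by side on chromosome 1 and encode nearly the same major antenna protein. CAB1 (AT1G29930) stood at 53.4, 23.9 and 35.0 FPKM in Ler with KCl, 32.0, 25.7 and 24.9 in Ler with KNO3, 59.8, 22.4 and 114 in KIN10ox with KCl, and 8.92, 11.1 and 9.51 in KIN10ox with KNO3. Only the last group stood apart. CAB3 (AT1G29910) stood at 16.8, 5.10 and 4.25 FPKM in Ler with KCl, 4.84, 3.54 and 4.39 in Ler with KNO3, 24.8, 4.68 and 54.3 in KIN10ox with KCl, and 1.12, 1.85 and 1.28 in KIN10ox with KNO3. CAB2 (AT1G29920) stood at 5.66, 0.34 and 0.47 FPKM in Ler with KCl, 0.24, 0.15 and 0.34 in Ler with KNO3, 12.1, 1.02 and 31.8 in KIN10ox with KCl, and 0.15, 0 and 0.19 in KIN10ox with KNO3. In each of the 3 genes KIN10ox library 3 with KCl was the highest of the 12, 5.10-fold, 31.2-fold and 11.6-fold above library 2 for CAB1, CAB2 and CAB3.

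The start of the 3 coding sequences shows how alike they are, which bears on how reads were divided among them. Bases 1 to 120 of the coding sequence are given 5′ to 3′ from the TAIR10.1 assembly, with capitals at the 9 positions where the 3 differ. CAB1 lies at chr1:10477885-10479114 on the plus strand, CAB2 at chr1:10474656-10475969 and CAB3 at chr1:10472280-10473502 on the minus strand.
CAB1: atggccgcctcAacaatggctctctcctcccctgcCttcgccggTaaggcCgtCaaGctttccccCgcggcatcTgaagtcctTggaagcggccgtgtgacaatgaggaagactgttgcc
CAB2: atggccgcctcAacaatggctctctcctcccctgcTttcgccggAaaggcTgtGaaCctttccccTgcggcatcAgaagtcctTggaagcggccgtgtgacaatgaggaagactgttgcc
CAB3: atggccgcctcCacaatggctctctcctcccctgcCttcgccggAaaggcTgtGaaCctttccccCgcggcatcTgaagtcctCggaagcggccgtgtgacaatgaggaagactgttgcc
Over the 804 coding bases the 3 differ at 47 positions, and identity is 96.1% for CAB1 and CAB2, 96.4% for CAB1 and CAB3 and 95.6% for CAB2 and CAB3. The longest identical run is 119 bases for CAB1 and CAB2, 74 for CAB1 and CAB3 and 116 for CAB2 and CAB3. Expected counts of the 3 were fractional, as 1018.37, 117.5 and 318.14 for CAB1, CAB2 and CAB3 in Ler library 1 with KCl. Reads were therefore split among the 3 by the authors' counting, and the level of each alone is uncertain. The same holds for LHCB2.1 and LHCB2.2, with expected counts of 225.54 and 208.46 in that library. Their identity was 77.7% of 954 aligned columns, where gaps count as differences. The coding lengths of these 2 genes are 954 and 798 bases, so this value understates how alike the aligned bases are. For LHB1B1 and LHB1B2, with 91.4% identity, the expected counts were whole numbers in all 12 root libraries.

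LHB1B1 (AT2G34430), the neighbour of LHB1B2, was detected almost only in the libraries that stood high. It was at 5.12, 0.10 and 0 FPKM in Ler with KCl, at 0 in all 3 libraries of Ler with KNO3, at 3.54, 0 and 30.5 in KIN10ox with KCl, and at 0, 0 and 0.10 in KIN10ox with KNO3. LHCB2.3 (AT3G27690), also of the major antenna, was at 0.89, 0.06 and 0.33 FPKM in Ler with KCl and 0.22, 0 and 0.22 with KNO3, and at 2.3, 0.51 and 8.23 in KIN10ox with KCl and 0.17, 0.17 and 0.22 with KNO3. Both genes followed the order of the KIN10ox KCl libraries, in which library 3 was 16.1-fold above library 2 for LHCB2.3.

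LHCB2.1 (AT2G05100), of the major antenna, stood at 11.7, 4.31 and 4.84 FPKM in Ler with KCl, 4.77, 6.77 and 5.75 in Ler with KNO3, 13.1, 5.21 and 22.1 in KIN10ox with KCl, and 2.73, 3.28 and 2.84 in KIN10ox with KNO3. LHCA1 (AT3G54890), of the photosystem I antenna, stood at 21.1, 11.8 and 13.3 FPKM in Ler with KCl, 13.03, 11.9 and 9.82 in Ler with KNO3, 16.4, 8.60 and 24.9 in KIN10ox with KCl, and 4.34, 6.32 and 4.90 in KIN10ox with KNO3. Both were lowest in KIN10ox with KNO3. LHCA1 was the only antenna gene called lower there, by -1.16 ± 0.34 (edgeR adjusted p = 0.045), while LHCB2.1 was at -0.95 ± 0.48 (edgeR adjusted p = 0.216). The LHCA1 call was lost with TMM factors, DESeq2, limma on log2(FPKM + 1), no filter, the replicate block, and without any 1 of 9 libraries, all 6 with KNO3 among them. In the fit of the KNO3 libraries alone, 9 antenna genes were called lower, a count without the share of all genes called in that fit.

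LHCA2 (AT3G61470), also of the photosystem I antenna, stood at 21.4, 10.9 and 13.2 FPKM in Ler with KCl, 13.5, 12.6 and 11.7 in Ler with KNO3, 18.9, 12 and 24.7 in KIN10ox with KCl, and 6.64, 9.66 and 6.40 in KIN10ox with KNO3. Its KIN10ox libraries with KNO3 lay below the other 9. The other antenna genes, LHCB2.2, LHCB3, LHCB4.2, LHCB5 and LHCB6, stood at 1.49 to 36.9 FPKM. Of the 14 antenna genes 14 fell with nitrate in KIN10ox and 2 in Ler, where 10 fell with TMM factors and 12 with DESeq2. The KIN10ox differences ran from -6.98 ± 1.47 for CAB2 to -1.26 ± 0.25 for LHCB6. No fold is read from LHB1B1, which was at 0 in most libraries. The Ler call of CAB2, -3.13 ± 1.35 (edgeR adjusted p = 0.0483), was lost without Ler library 1 or KIN10ox library 1 with KCl, without any 1 of the 6 KNO3 libraries, with no filter and with limma at both pseudocounts.

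Other genes of photosynthesis were counted by list, and those listed had been selected by the authors as changed. Of 18 chlorophyll synthesis genes 3 were listed, and the protochlorophyllide reductases PORB and POR C fell with nitrate in KIN10ox and POR C in Ler. Of 14 carbon fixation genes 12 were listed and 11 tested. In KIN10ox 10 of them fell with nitrate, among them 4 small subunits of Rubisco, and the transketolase gene AT3G60750 rose. In Ler 1 fell and the transketolase gene rose. Of all genes tested 39.5% fell and 51.6% rose in KIN10ox, and 26.6% fell and 53.8% rose in Ler. Of 13 regulators of photosynthesis genes 2 were listed: HYH, a transcription factor of light signalling, rose in both genotypes, and PIL6 rose in Ler.

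In protoplasts the comparisons asked what NLP7 changed and what KIN10 changed beside it. NLP7 raised 28 of the 28 genes, by 1.11 to 5.17 with a median of 1.68, but 18 of these turned negative with TMM factors over the listed genes and 14 with DESeq2. These factors moved the median of all genes by -1.83 and -1.66, and the median of all genes tested was 1.84. By the edgeR call 91.3% of all genes tested rose with NLP7, and these genes were listed by the authors from this contrast. With KIN10 beside NLP7, 27 of the 28 were lower than with NLP7, the median being -1.40. Of these, 15 turned positive with TMM factors and 11 with DESeq2. All genes tested had a median of -1.47, and 86.4% were lower. Against GFP, 10 of the 28 were higher with NLP7 and KIN10, with a median of 0.29, but 14 of the 28 signs turned with TMM factors, which called 5 higher and 2 lower, and 15 with DESeq2, which called 3 higher and 5 lower. This stands beside 31.6% and a median of 0.44 for all genes tested. That count was 6 without GFP library 1, without GFP library 2, and without library 3 of NLP7 and KIN10. The libraries with NLP7 and KIN10 lay above all GFP libraries for 15 of the 28 genes (40.7% of all genes tested) and below all NLP7 libraries for 26 (86.0%), PETE1 and FdC1 overlapping. The shares of these genes were near those of all genes tested. The NLP7 libraries enter both the selection of the genes and the comparison with KIN10.

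**Figure D4:**
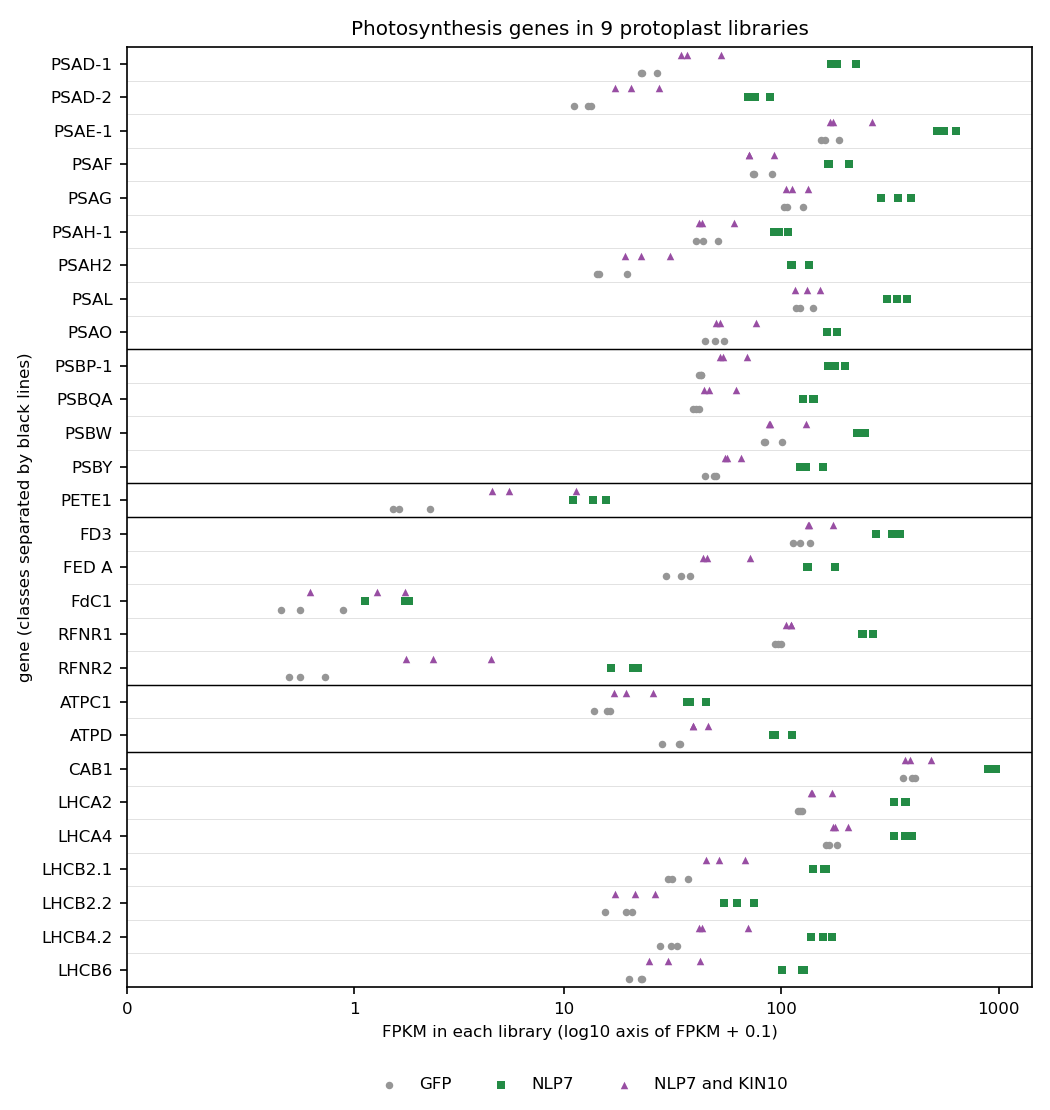
FPKM of 28 photosynthesis genes (rows, classes separated by black lines) in 9 protoplast libraries, with 1 symbol per library and 3 per group, on a log10 axis of FPKM + 0.1. Mean FPKM was highest with NLP7 in every row, an order that turned for 18 genes against GFP and for 16 against NLP7 and KIN10 with TMM factors over the listed genes.

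The NLP7 transcript itself differed between libraries of a group. Its FPKM in libraries 1, 2 and 3 was 52.7, 53.7 and 43.2 under GFP. Under NLP7 it reached 2261, 1536 and 1950, and under NLP7 plus KIN10 280.2, 212 and 417. NLP7 library 1, where it was highest, was the highest of its group for 25 of the 28 genes, and library 2, where it was lowest, was the lowest for 22. Library 3 of NLP7 and KIN10, where it was highest, was the highest of its group for 27. Under GFP, library 3, where it was lowest, was the highest for 21. All genes listed in protoplasts together took 8.64%, 7.11% and 7.86% of the mapped fragments in NLP7 libraries 1, 2 and 3. With both factors they took 2.83%, 2.68% and 3.42%, so in both groups the whole list also followed the order of the NLP7 transcript. Under GFP the share of the whole list was lowest in library 3. Library order was not counted gene by gene over all listed genes. The summed FPKM of the 25 genes of green tissue was 1687, 1629 and 1866 under GFP, 5730.2, 4817 and 5173 under NLP7, and 1850.3, 1812 and 2444 with both factors. The part of the lower NLP7 transcript in the difference made by KIN10 was not tested.

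RFNR2, the root-type reductase, changed most. Its FPKM was 0.71, 0.45 and 0.52 under GFP, 22.04, 16.6 and 20.8 under NLP7, and 2.42, 1.81 and 4.57 with both factors. No group overlapped another. The log2 difference was 5.17 ± 0.35 for NLP7 against GFP, -2.80 ± 0.28 for NLP7 and KIN10 against NLP7 (edgeR adjusted p = 3.1e-07), and 2.37 ± 0.38 for NLP7 and KIN10 against GFP (edgeR adjusted p = 0.00013). These directions stayed the same with TMM factors and DESeq2.

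RFNR1 stood at 97.2, 100.4 and 94.1 FPKM under GFP, 265, 237 and 239 under NLP7, and 112, 106 and 111 with both factors. FD3 stood at 114, 122 and 136 FPKM under GFP, 354, 273 and 323 under NLP7, and 133, 135 and 173 with both factors. With NLP7 RFNR1 rose by 1.34 ± 0.12 and FD3 by 1.34 ± 0.15, and these values turned to -0.49 and -0.51 with TMM factors. With GFP, RFNR1 stood far above RFNR2 in FPKM. In roots of Ler with KCl, in tables normalized apart from these, RFNR2 had stood above RFNR1.

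PETE1 stood at 1.67, 1.55 and 2.36 FPKM under GFP, 13.7, 10.99 and 15.7 under NLP7, and 5.54, 4.61 and 11.4 with both factors. Library 3 of the last group reached the NLP7 libraries, and all its libraries lay above GFP. The log2 difference was 2.83 ± 0.34 for NLP7 against GFP and 1.90 ± 0.35 for NLP7 and KIN10 against GFP (edgeR adjusted p = 0.000552). In the authors' deposited table for NLP7 and KIN10 against GFP, PETE1 and RFNR2 were the 2 photosynthesis genes listed.

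The leaf ferredoxin gene FED A (AT1G60950) stood at 34.8, 29.8 and 38.4 FPKM under GFP, 177, 131 and 133 under NLP7, and 43.8, 46.0 and 72.2 with both factors. It was higher than GFP in both by calls, by 2.09 ± 0.21 and 0.63 ± 0.20 (edgeR adjusted p = 0.0224 for the latter). Both calls were lost with TMM factors. The latter was also lost with DESeq2 and without GFP library 1, GFP library 2 or library 3 of NLP7 and KIN10. FdC1, a ferredoxin-like gene at 0.41 to 1.87 FPKM, was the one not called between NLP7 and KIN10 and NLP7, at -0.43 ± 0.42 (edgeR adjusted p = 0.338). The 2 ATP synthase subunits, ATPC1 (gamma) and ATPD (delta), stood at 13.7 to 34.4 FPKM with GFP, 37.0 to 112 with NLP7, and 17.0 to 46.2 with NLP7 and KIN10. Both rose with NLP7, by 1.38 ± 0.18 and 1.62 ± 0.15, values that turned to -0.45 and -0.22 with TMM factors.

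Of the photosystem I genes, both PSAD copies and PSAH2 differed most. PSAD-1 (AT4G02770) stood at 22.9, 22.7 and 26.8 FPKM under GFP, 222, 169.9 and 180.5 under NLP7, and 37.0, 34.9 and 53.1 with both factors. PSAD-2 stood at 11.1, 12.97 and 13.4 FPKM under GFP, 89.1, 70.9 and 76.1 under NLP7, and 17.3, 20.5 and 27.6 with both factors. The 2 copies, with 86.3% coding identity, showed the same order of groups, with no overlap. PSAD-1 rose with NLP7 by 2.97 ± 0.19 and PSAD-2 by 2.64 ± 0.20.

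PSAH2 stood at 14.2, 14.6 and 19.5 FPKM under GFP, 135, 113 and 111 under NLP7, and 22.8, 19.1 and 30.8 with both factors. PSAH-1, its 87.0% identical copy, stood at 40.9, 43.7 and 51.2 FPKM under GFP, 108, 92.8 and 97.9 under NLP7, and 41.8, 43.5 and 60.6 with both factors. PSAH-1 stood above PSAH2 in all libraries with GFP, below it in all libraries with NLP7, and above it again in those with NLP7 and KIN10. The PSAH2 libraries with both factors overlapped those with GFP in 1 library. The rise with NLP7 was 2.87 ± 0.21 for PSAH2 and 1.13 ± 0.17 for PSAH-1, and the latter turned to -0.71 with TMM factors.

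The most abundant photosystem I genes changed less. PSAE-1 stood at 160, 153 and 185 FPKM under GFP, 640, 524 and 565 under NLP7, and 169, 174 and 262 with both factors. PSAL stood at 122, 117 and 141 FPKM under GFP, 379, 309 and 341 under NLP7, and 132, 116 and 152 with both factors. PSAG stood at 107, 104 and 127 FPKM under GFP, 396, 289 and 347 under NLP7, and 106, 112 and 134 with both factors. In all 3 the libraries with NLP7 and KIN10 overlapped those with GFP. PSAF, which docks plastocyanin, and PSAO, a subunit on the antenna side, stood at 45.01 to 91.3 FPKM with GFP and 163 to 207 with NLP7. For PSAE-1, PSAL and PSAG the log2 differences for NLP7 and KIN10 against GFP were 0.25 ± 0.17, 0.05 ± 0.14 and 0.03 ± 0.16, with edgeR adjusted p values of 0.256 to 0.891. DESeq2 called PSAL and PSAG lower than GFP there, and TMM factors called neither.

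Among photosystem II genes, PSBP-1 (AT1G06680), of the oxygen-evolving complex, stood at 42.2, 42.8 and 42.8 FPKM under GFP, 196, 164 and 177 under NLP7, and 54.0, 52.7 and 69.8 with both factors. PSBQA (AT4G21280), of the same complex, stood at 40.5, 39.3 and 42.1 FPKM under GFP, 142, 127 and 140.0 under NLP7, and 44.1, 47.0 and 61.9 with both factors. The 3 groups did not overlap for either gene. PSBP-1 rose with NLP7 by 2.07 ± 0.15 and was the only photosystem II gene called higher than GFP with NLP7 and KIN10, by 0.45 ± 0.15 (edgeR adjusted p = 0.0224). Both calls were lost with TMM factors. The latter was also lost with DESeq2 and without any 1 GFP library or library 3 of NLP7 and KIN10. PSBW and PSBY, both small subunits, stood at 83.6 to 101 and 45.01 to 50.3 FPKM with GFP and rose with NLP7 by 1.37 ± 0.17 and 1.49 ± 0.15, values that turned to -0.47 and -0.36 with TMM factors.

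CAB1 was the most abundant of the 28, at 399.6, 365 and 412 FPKM under GFP, 976, 909 and 899 under NLP7, and 393, 371 and 487 with both factors. Its libraries with NLP7 and KIN10 overlapped those with GFP, at a log2 difference of 0.08 ± 0.12 (edgeR adjusted p = 0.657). With TMM factors and with DESeq2, CAB1 was called lower than GFP there. LHCA2 stood at 119.9, 122 and 125 FPKM under GFP, 372, 331 and 377 under NLP7, and 138, 137 and 172 with both factors. LHCA4 (AT3G47470), the other photosystem I antenna gene, stood at 166, 161 and 181 FPKM under GFP, 400.4, 332 and 371 under NLP7, and 173, 177 and 203 with both factors. All 3 rose with NLP7, by 1.23 ± 0.13, 1.55 ± 0.13 and 1.11 ± 0.13, below the median of all genes tested, and turned negative with TMM factors and DESeq2.

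Of the LHCB genes of lower level, LHCB6, LHCB4.2 and LHCB2.1 had the larger differences. LHCB6 (AT1G15820), a minor antenna protein of photosystem II, stood at 20.1, 22.7 and 22.9 FPKM under GFP, 127, 101 and 125 under NLP7, and 30.2, 24.8 and 42.7 with both factors. LHCB4.2 (AT3G08940), another minor antenna protein, stood at 27.8, 31.4 and 33.3 FPKM under GFP, 171, 137 and 156 under NLP7, and 42.1, 43.2 and 70.5 with both factors. The marker LHCB2.1 stood at 30.4, 31.7 and 37.3 FPKM under GFP, 161, 141 and 158 under NLP7, and 51.7, 45.3 and 68.4 with both factors. No group overlapped another for these genes. NLP7 raised them by 2.42 ± 0.20, 2.32 ± 0.20 and 2.18 ± 0.17, and all 3 were higher than GFP by calls with NLP7 and KIN10. These calls against GFP were lost with DESeq2, and those of LHCB6 and LHCB4.2 also with TMM factors. LHCB2.2, at a lower mean of 34.8 FPKM, rose with NLP7 by 1.79 ± 0.19, a value that turned to -0.061 with TMM factors. With both factors LHCB2.2 overlapped GFP and was not called against it (edgeR adjusted p = 0.402). Across the 28 genes the mean FPKM over protoplast libraries and the log2 NLP7 difference had a Pearson r of -0.65 and a Spearman rho of -0.65, a description across genes that share libraries.

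Of 18 chlorophyll synthesis genes 5 were listed, CH1, CHLI1, CRD1, GUN4 and GUN5. All 5 rose with NLP7 and were lower with KIN10 beside it, with median log2 differences of 1.34 and -0.80, beside 1.84 and -1.47 over all genes tested, of which 91.3% rose and 86.4% were lower. Both medians are smaller than the shifts of -1.83 and 1.48 that TMM factors make. Of 13 regulators 3 were listed: GNC and CGA1, GATA factors that promote chloroplast development, rose with NLP7, and PIL5, a phytochrome-interacting factor, fell. The median of these 3 was 1.29, below the 1.84 of all genes tested and smaller in size than the TMM shift of -1.83. Of 14 carbon fixation genes 3 were listed and rose with NLP7, with a median of 1.85, near that of all genes tested. With KIN10 beside it, the Rubisco small subunit gene RBCS2B was higher than with NLP7, and AT3G60750 and GAPA were lower. GL2 and SCR, the 2 listed of 13 root markers, also rose with NLP7, and their summed FPKM went from 2.38 to 2.58 with GFP to 17.0 to 24.5 with NLP7 and 4.41 to 6.22 with NLP7 and KIN10.

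The 18 genes listed in both tissues were 3 root-type genes and 15 of green tissue. The 3 rose with nitrate in KIN10ox roots and with NLP7 in protoplasts. The 15 fell with nitrate in KIN10ox roots and rose with NLP7 in protoplasts, though 11 of the 18 protoplast values turned negative with TMM factors and 8 with DESeq2, these directions being those for which the authors had listed them. PETE1 and PSAH2 had the largest values in both, -4.55 and -3.34 in KIN10ox roots and 2.83 and 2.87 in protoplasts. Across the 15 genes the 2 log2 differences had a Pearson r of -0.54 and a Spearman rho of -0.43.

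**Figure D5:**
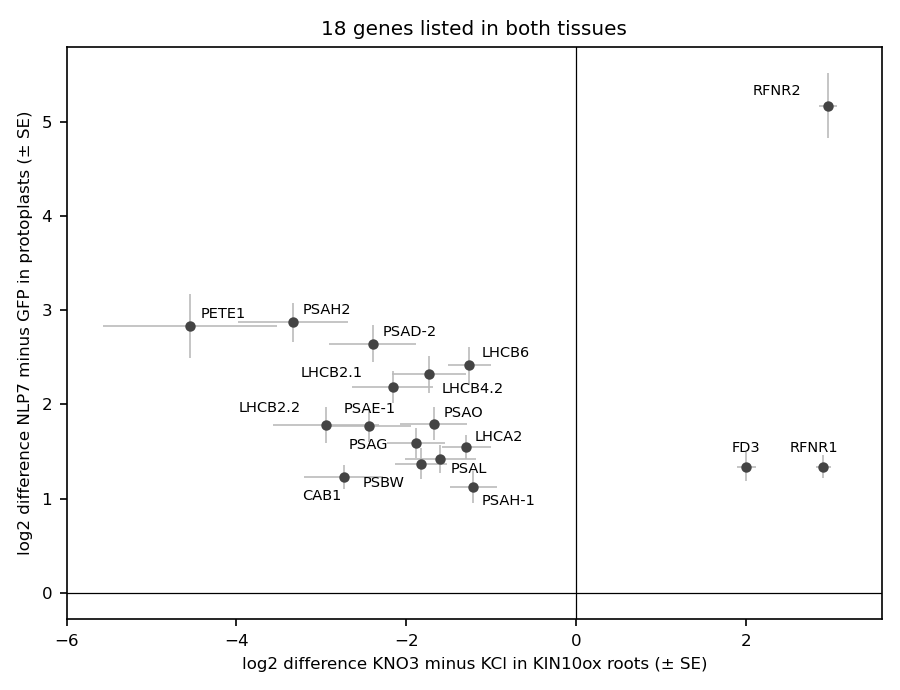
Log2 difference of KNO3 against KCl in KIN10ox roots (horizontal) and of NLP7 against GFP in protoplasts (vertical), each ± SE from edgeR, for the 18 genes listed in both tissues. FD3, RFNR1 and RFNR2 lay to the right and the other 15 to the left; with TMM factors over the listed genes, 11 of the 18 vertical values turned negative.

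Sequences before the gene start are shown for PSAH2 and LHCB6, which with PSBQ-2 are the 3 genes that hold both motifs named here, and for RFNR2, the gene with the largest difference in protoplasts. Each window holds the 250 bases before the annotated start of the gene, 5′ to 3′ on the gene's strand, in the TAIR10.1 assembly of RefSeq. Capitals mark the G-box CACGTG and the I-box GATAAG, motifs known from promoters of light-regulated genes, each searched on both strands. The windows are chr1:19454548-19454797 on the plus strand for PSAH2, and chr1:5447881-5448130 and chr1:10809189-10809438 on the minus strand for LHCB6 and RFNR2.
PSAH2: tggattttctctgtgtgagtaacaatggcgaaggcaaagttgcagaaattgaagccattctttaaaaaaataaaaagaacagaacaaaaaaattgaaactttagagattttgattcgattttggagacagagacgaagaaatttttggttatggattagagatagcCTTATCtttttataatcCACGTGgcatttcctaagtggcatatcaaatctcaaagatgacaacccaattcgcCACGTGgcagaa
LHCB6: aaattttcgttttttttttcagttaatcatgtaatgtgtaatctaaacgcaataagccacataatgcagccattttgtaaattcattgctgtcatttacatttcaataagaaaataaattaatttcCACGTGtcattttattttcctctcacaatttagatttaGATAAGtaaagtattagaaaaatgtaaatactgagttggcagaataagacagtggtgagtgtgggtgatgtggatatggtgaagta
RFNR2: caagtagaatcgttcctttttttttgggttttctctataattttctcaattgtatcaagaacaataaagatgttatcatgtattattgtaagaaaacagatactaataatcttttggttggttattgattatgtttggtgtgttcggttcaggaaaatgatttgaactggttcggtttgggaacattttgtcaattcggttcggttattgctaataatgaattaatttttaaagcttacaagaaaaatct
PSAH2 holds G-boxes whose first bases lie at -67 and -12 and an I-box at -84, and LHCB6 a G-box at -124 and an I-box at -86. The RFNR2 window holds neither motif. The G-box stood in 7 of the 43 windows (16.3%), beside 6.49% of the windows of 27443 genes, and the I-box in 12 (27.9%), beside 12.3%. The CCAAT motif stood in 30 (69.8%), beside 46.0%. No 2 of the marked motifs overlap in these windows, and 21 of the 43 windows overlapped another annotated gene. These matches are descriptions of letters and not of sites in use.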

How the data were processed

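RNA of 12 root and 9 protoplast libraries was read on a BGISEQ-500 instrument and mapped to TAIR10 with HISAT and Bowtie2, per the submitters' processing notes. The sources used here name no counter and no versions. Per the file headers, the deposited tables hold an expected count and an FPKM per gene and library, estimated by the authors, for the genes the authors selected as changed by 2-fold or more. The log2 fold changes and the p-values in them are the authors' own, from DESeq2 per the file headers, while the design text names NOISeq with a probability over 0.8. The labels call protoplast plants Col-0 in one field and Ler in another, and a growth note of the KIN10ox samples speaks of wild-type roots; the genotype field was followed.

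Genes whose pathway annotation holds the word Photosynthesis were taken from the 4 tables and joined on gene ID within a tissue. The members and gene lists were chosen with earlier results of these data known. Library sizes were recovered from the ratio of counts to FPKM. Expected counts, fractional for 6.74% of root and 2.57% of protoplast genes, were rounded. All genes listed in a tissue were fitted together with edgeR 4.0.16 (R 4.3.3, quasi-likelihood, filterByExpr, no further scaling), leaving 972 root and 1722 protoplast genes, with Benjamini-Hochberg adjustment over all of them and a threshold of 0.05. The script was tested on simulated data. Alternatives used TMM factors, DESeq2 1.42.0, limma 3.58.1 on log2(FPKM + 0.1) or log2(FPKM + 1), no filter, a replicate block, left-out libraries and the authors' values. Tables of the 2 tissues were normalized separately. P-values of the main fit rest on the spread between replicates, estimated over all groups of a tissue together, the uneven KCl groups among them. Nothing states whether the 3 replicates of a group were separate harvests. No 2 libraries agreed within sampling noise (lowest chi-square per degree of freedom 3.13). The tables held 18 columns of other samples, which were not used. Genes named with values were the 6 marker genes, the up to 3 most abundant and up to 2 most changed per class and tissue, and those opposite to their class; DRT112, PSAF, PSAO and the CAB copies were added after their values were seen. Sequences came from the TAIR10.1 assembly of RefSeq, with Biopython 1.88.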

Additional observations from a re-analysis of the deposited data

How the results depend on the processing

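TMM and DESeq2 factors centre the listed genes, and so moved the median of all genes by -0.80 and -0.79 for nitrate in Ler, -0.48 and -0.47 in KIN10ox, -0.10 and -0.11 between genotypes with KCl, 0.21 and 0.21 with KNO3, 0.32 and 0.32 for the difference of responses, -1.83 and -1.66 for NLP7, -0.34 and -0.38 for NLP7 and KIN10 against GFP, and 1.48 and 1.27 against NLP7. Counts of photosynthesis genes called moved as follows. With nitrate in Ler the count of 6 became 24 with TMM (3 higher, 21 lower), 26 with DESeq2 (3 higher, 23 lower) and 3 in the authors' deposited table. With nitrate in KIN10ox the 32 became 16 without both high KCl libraries. For the genotypes with KCl, the 1 became 0 with TMM, limma at either pseudocount, without both or all 3 high KCl libraries, and in the 2 groups alone. With KNO3 the 10 became 1 with TMM, 2 with DESeq2, 6 with limma on log2(FPKM + 1), 20 without the 3 high libraries and 19 in the 2 groups alone. DESeq2 called 1 difference of responses in place of 0. NLP7 went from 28, all higher, to 17 with DESeq2, of which 10 higher and 7 lower (with TMM 19, of which 8 and 11), NLP7 and KIN10 against GFP from 10 to 2 in the authors' deposited table, and against NLP7 from 27, all lower, to 13 with TMM, of which 8 higher and 5 lower, and 8 with DESeq2, of which 2 and 6. TMM called 7 against GFP (5 higher, 2 lower) and DESeq2 called 8 (3 and 5). Shares of all genes called are given for the main fit alone. The fits without all 3 high libraries and of 2 groups alone were chosen after the data were seen, and causes were not tested.

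Leaving out each library in turn gave 4 to 8 calls for nitrate in Ler, 31 to 32 in KIN10ox, 0 to 11 with KCl, 2 to 14 with KNO3, 0 to 10 for the difference, 27 to 28 for NLP7, 6 to 11 for NLP7 and KIN10 against GFP, and 27 to 27 against NLP7. Same-numbered replicates did not deviate together in all pairs (correlations of -0.27 to 0.32 in roots and -0.11 to 0.27 in protoplasts), so the numbers do not pair the libraries. A fit with the replicate block called 7, 32, 1, 8, 0, 28, 10 and 27 genes in the same order.

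Called values that changed sign were these. LHB1B1 with nitrate in KIN10ox had a fitted value of 2.66 without both high libraries, from 1 KCl library at 0 and KNO3 counts of 0, 0 and 2, which is no fold. For NLP7 with TMM factors they were LHCB2.2 at -0.061, FD3 -0.51, PSBW -0.47, PSAH-1 -0.71, LHCA4 -0.73, LHCA2 -0.29, ATPC1 -0.45, RFNR1 -0.49, ATPD -0.22, PSAL -0.42, FdC1 -0.42, PSBQA -0.10, PSAE-1 -0.067, PSAO -0.039, CAB1 -0.60, PSAF -0.70, PSAG -0.26 and PSBY -0.36. With DESeq2 they were FD3 at -0.33, PSBW -0.29, PSAH-1 -0.54, LHCA4 -0.56, LHCA2 -0.11, ATPC1 -0.28, RFNR1 -0.32, ATPD -0.050, PSAL -0.24, FdC1 -0.25, CAB1 -0.43, PSAF -0.53, PSAG -0.081 and PSBY -0.18. For NLP7 and KIN10 against NLP7 with TMM factors they were FD3 at 0.37, PSBW 0.27, PSAH-1 0.43, LHCA4 0.49, LHCA2 0.20, ATPC1 0.51, RFNR1 0.32, ATPD 0.22, PSAL 0.11, PSBQA 0.049, CAB1 0.32, PSAF 0.29, FED A 0.018, PSBY 0.28 and PETE1 0.52. With DESeq2 they were FD3 at 0.16, PSBW 0.061, PSAH-1 0.23, LHCA4 0.28, ATPC1 0.31, RFNR1 0.11, ATPD 0.015, CAB1 0.11, PSAF 0.084, PSBY 0.072 and PETE1 0.31. Values that had not been called also turned: FNR2 and PETE1 for nitrate in Ler, FD3, LHCB5, PSAH-1 and PSAK between genotypes with KCl, FD3 and LHCB4.2 with KNO3, FD3 for the difference, FdC1 against NLP7, and 14 with TMM and 15 with DESeq2 for NLP7 and KIN10 against GFP.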
